A study of Mus musculus with 10 samples.

Results

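The homeobox gene En1 and 7 genes for secreted proteins that modify Wnt signalling were followed across mouse inguinal subcutaneous white fat 70 days after irradiation of the left hindlimb. The 7 are Dkk2 and Dkk3 of the Dickkopf family, Sfrp1, Sfrp2, Sfrp4 and Frzb of the secreted Frizzled-related family, and Wif1. The members were named by symbol, and all 8 were found among the 24421 gene symbols of the count files. En1 and Dkk2 were chosen by their FLASH and sham values in these libraries, where they differed. Their values are therefore given as a description, with no p-value in any comparison, since each comparison reuses those FLASH or sham libraries.

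The mice were WT C57BL/6J, and no group carried an added allele. The FLASH group of 4 libraries received 33.3 Gy of electrons from an ElectronFlash linear accelerator in its FLASH modality, and the CONV group of 3 libraries received 33.3 Gy in its conventional modality. The sham group of 3 libraries was not irradiated. All fat came from the left hindlimb at day 70, and all libraries carry the label of batch 1. The labels give no age or sex and do not say whether the libraries come from different animals, and the p-values cover only the spread between these samples. Both irradiated groups are set against the same 3 sham libraries, so those comparisons are not independent.

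Wnt proteins are secreted signals that bind Frizzled receptors and the co-receptors Lrp5 and Lrp6, and they stabilise beta-catenin in the canonical branch. Secreted Frizzled-related proteins and Wif1 bind Wnt proteins outside the cell, whereas Dickkopf proteins such as Dkk2 act at the co-receptors. In adipose progenitors, canonical Wnt signalling is known to restrain the formation of fat cells. En1, a transcription factor of ventral limb ectoderm and of the developing midbrain and hindbrain, also marks a lineage of dermal fibroblasts that deposits scar matrix in mouse dorsal skin.

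Gene counts were 22.39 M to 36.03 M (M, 1e+06) per library, and a floor of 3 counts equalled 0.08326 to 0.134 CPM (counts per 1e+06 gene counts, scaled by TMM factors). Adipocyte markers were present in all libraries. FLASH replicate 3 and CONV replicate 2 stood apart. Their B cell markers summed to 1760 and 2050 CPM, against 1.37 to 6.82 CPM in the other 8 libraries, and their adipocyte markers summed to 2530 and 1760 CPM, against 9750 to 17100 CPM. Lymph node stroma markers summed to 116 CPM in FLASH replicate 3 and 274 CPM in CONV replicate 2, against 1.15 to 11 CPM in the other 8. Whether lymph node was taken with the fat, and its part in the values of the members, was not tested. These 2 libraries are called the lymphocyte-rich pair here, and results are given with them (10 libraries) and without them (8 libraries).

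En1 was lower in all 7 irradiated libraries than in any sham library. FLASH libraries had 1.48, 1.57, 2.32 and 2.84 CPM of En1, CONV libraries had 2.11, 1.84 and 1.91 CPM, and sham libraries had 4.19, 5.76 and 5.08 CPM. These levels rested on 43 to 92 counts in FLASH, 52 to 66 in CONV and 138 to 177 in sham. The CONV libraries averaged 1.96 ± 0.14 CPM (SD, n = 3) and lay inside the range of the FLASH libraries. The log2 fold change from edgeR was -1.35 ± 0.34 (SE) for CONV against sham, and 0.07 ± 0.31 for FLASH against CONV. In the 8 libraries it was -1.35 ± 0.30 for FLASH against sham and -1.33 ± 0.35 for CONV against sham, so the difference was as large without the lymphocyte-rich pair. In all 10 libraries, 2.45% of the 15266 genes tested had every FLASH library below every sham library, and 9.11% had every CONV library below every sham library. In the 8 libraries these shares were 4.64% and 13.2%. All 7 irradiated libraries were below all sham libraries in 0.825% of genes, and since En1 was chosen by such values nothing is read from these shares.

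Dkk2 had its highest levels in sham libraries too, but the sham libraries were uneven. FLASH libraries had 1.33, 1.21, 1.58 and 1.76 CPM of Dkk2, CONV libraries had 2.02, 1.21 and 0.809 CPM, and sham libraries had 4.46, 6.25 and 1.98 CPM. Every FLASH library was below every sham library. CONV replicate 1, at 2.02 CPM, lay just above sham replicate 3, at 1.98 CPM, so those groups overlapped. The FLASH libraries were the more even, with a mean of 1.47 ± 0.248 CPM, while the sham mean was 4.23 ± 2.14 CPM (SD, n = 4 and 3). Its log2 fold change was -1.65 ± 0.50 (SE) for CONV against sham and 0.13 ± 0.46 for FLASH against CONV. In the 8 libraries it was -1.57 ± 0.49 for FLASH against sham and -1.59 ± 0.57 for CONV against sham.

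The bases just before the annotated starts of En1 and Dkk2 are shown because these are the members chosen by their FLASH and sham values. They come from the RefSeq promoter table of GRCm38.p6, plus strand, and end at the base before the gene start in GENCODE M21. Capitals mark CCAAT boxes, which read ATTGG when they lie on the opposite strand, the E-box CACGTG, and the TATA box TATAAA. The En1 stretch is chr1:120602237-120602417 and the Dkk2 stretch is chr3:132085042-132085291.
En1: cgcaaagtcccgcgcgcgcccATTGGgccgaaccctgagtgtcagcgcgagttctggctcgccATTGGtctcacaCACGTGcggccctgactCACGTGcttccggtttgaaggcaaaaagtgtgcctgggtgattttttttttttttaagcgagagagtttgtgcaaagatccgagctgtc
Dkk2: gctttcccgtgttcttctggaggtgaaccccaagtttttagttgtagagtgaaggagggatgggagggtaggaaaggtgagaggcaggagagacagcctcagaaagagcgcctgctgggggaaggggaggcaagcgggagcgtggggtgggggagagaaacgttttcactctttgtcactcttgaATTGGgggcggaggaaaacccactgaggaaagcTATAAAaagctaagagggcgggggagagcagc
The En1 stretch is 181 bases long with 15 CG steps, and the Dkk2 stretch is 250 bases long with 7. En1 held a pair of CCAAT boxes on the opposite strand, 229 and 187 bases before the RefSeq start, and a pair of E-boxes at 175 and 158 bases. Dkk2 held a CCAAT box on the opposite strand 65 bases before its start, and a TATA box at 32 bases. Both strands were searched in the 250 bases before each start of 32851 promoters. CCAAT occurred in 33.8% of them, TATAAA in 12.4% and CACGTG in 6.02%, and no match overlapped another motif in the En1 or Dkk2 stretch. CTTTGAT, a sequence that TCF and LEF factors bind, occurred in 3.21% of promoters and in none of the 5 members that the table holds, which are En1, Dkk2, Sfrp2, Frzb and Wif1. Among these, Wif1 held TATAAA and CACGTG. A match is a description of letters and not a binding site.

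**Figure D1:**
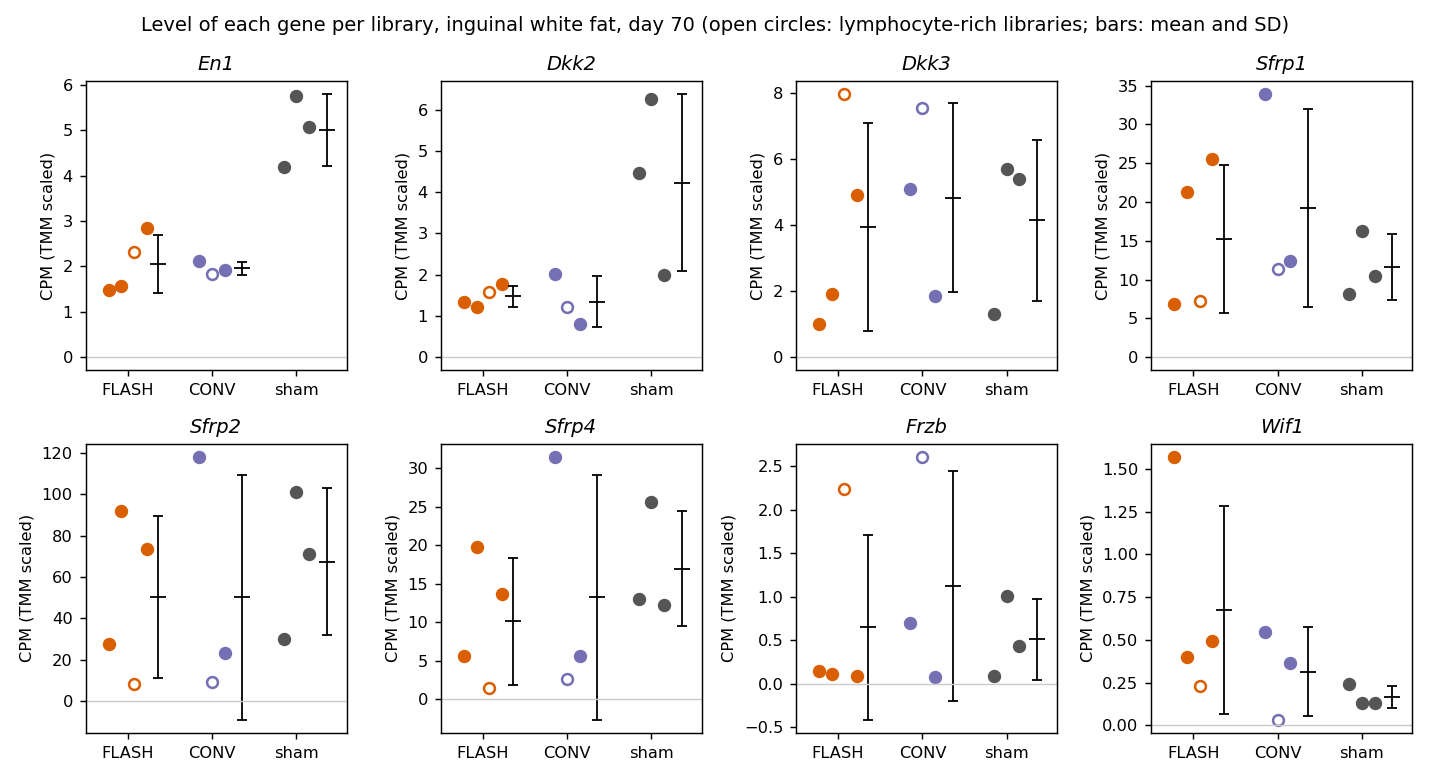
Level in CPM of each of the 8 genes in each library, for FLASH, CONV and sham, with the group mean and SD as bars and the lymphocyte-rich pair as open circles. En1 in all 7 irradiated libraries sits at or below 2.84 CPM, under the lowest sham library at 4.19 CPM.

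In GRCm38, En1 lies at chr1:120602418-120607992 on the plus strand and Dkk2 at chr3:132085292-132180304 on the plus strand. Dkk3 lies at chr7:112116017-112159057 on the minus strand, Sfrp1 at chr8:23411502-23449632 on the plus strand, and Sfrp4 at chr13:19623104-19632994 on the plus strand. Frzb lies at chr2:80411970-80447625 on the minus strand and Wif1 at chr10:121033960-121100650 on the plus strand. Sfrp2 lies at chr3:83766321-83774316 on the plus strand, and 347 of its 2153 exon bases overlap exons of Gm26771 on the opposite strand. No source used here gives the strand setting of the counting, so reads in that overlap cannot be assigned, and the other 7 genes overlap no exons of another gene.

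Per kilobase of exon, Sfrp2 was the most abundant member, at 23.4 ± 18.1 CPM per kb in FLASH, 23.3 ± 27.5 in CONV and 31.3 ± 16.6 in sham (SD, n = 4, 3 and 3). Sfrp4 followed in sham at 4.06 ± 1.79 CPM per kb, then Sfrp1 at 2.66 ± 0.964 and En1 at 1.91 ± 0.30. Dkk3 stood at 1.23 ± 0.729 CPM per kb in sham, Dkk2 at 1.14 ± 0.579, Frzb at 0.158 ± 0.143 and Wif1 at 0.0696 ± 0.0264 (SD, n = 3 for each). Within that order, the gaps between Sfrp2 and Sfrp4 and between Dkk2 and Frzb exceeded the sum of both SDs, and the other neighbours did not differ beyond their spread. En1 in irradiated fat stood at 0.782 ± 0.246 CPM per kb in FLASH and 0.744 ± 0.0534 in CONV (SD, n = 4 and 3), below the mean of Dkk3 in the same groups, at 1.17 ± 0.939 and 1.44 ± 0.851.

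None of the 6 members given a p passed the test in any comparison, whether with 10 libraries or with 8. In edgeR's quasi-likelihood test with Benjamini-Hochberg adjustment over all genes, 0 of 15266 genes had an adjusted p under 0.05 in any of the 3 comparisons (called: 0%). FLASH against sham had 99 genes with an unadjusted p under 0.05, CONV against sham had 889, and FLASH against CONV had 453. limma voom also called 0 genes in each comparison, while DESeq2 called 0, 66 and 40 genes in that order, and none of the 6 members given a p. In the 8 libraries edgeR called 0% of 15252 genes for FLASH against sham, 0.0393% for CONV against sham and 0.0131% for FLASH against CONV, with none of those 6 members among them. For this number of libraries an adjusted p near 1 does not show that levels were alike.

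Sfrp2 and Sfrp4, which encode Wnt-binding proteins made by stromal fibroblasts, varied between libraries of a group by far more than between groups. FLASH libraries had 27.7, 92, 8.26 and 73.7 CPM of Sfrp2, CONV libraries had 118, 9.12 and 23.4 CPM, and sham libraries had 30, 101 and 71.1 CPM. The lowest libraries were the lymphocyte-rich pair, and all groups overlapped. FLASH libraries had 5.66, 19.8, 1.43 and 13.7 CPM of Sfrp4, CONV libraries had 31.5, 2.61 and 5.63 CPM, and sham libraries had 13, 25.6 and 12.3 CPM. The highest library of both genes was CONV replicate 1 and the lowest 2 were the lymphocyte-rich pair. With 10 libraries, Sfrp2 had a log2 fold change of -0.42 ± 0.96 (SE) for FLASH against sham and -0.43 ± 1.03 for CONV against sham (edgeR adjusted p = 0.998 and 0.86). With 8 libraries these were -0.07 ± 0.68 and 0.05 ± 0.76 (edgeR adjusted p = 1 and 0.982). Sfrp4 had -0.74 ± 0.95 and -0.35 ± 1.03 with 10 libraries (edgeR adjusted p = 0.998 and 0.887), and -0.38 ± 0.66 and 0.12 ± 0.73 with 8 (edgeR adjusted p = 1 and 0.958). For FLASH against CONV in 10 libraries, Sfrp2 had 0.01 ± 0.96 and Sfrp4 had -0.39 ± 0.95 (edgeR adjusted p = 0.999 for both).

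Sfrp1, a further Wnt-binding Frizzled-related protein, had fold changes against sham that did not exceed the spread and rested on single libraries. FLASH libraries had 6.9, 21.3, 7.26 and 25.5 CPM of Sfrp1, CONV libraries had 33.9, 11.3 and 12.4 CPM, and sham libraries had 8.14, 16.3 and 10.4 CPM. FLASH held libraries on both sides of the sham range, and CONV replicate 1 was the highest of all. Sfrp1 had a log2 fold change of 0.39 ± 0.59 (SE) for FLASH against sham, 0.72 ± 0.63 for CONV against sham and -0.33 ± 0.58 for FLASH against CONV (edgeR adjusted p = 0.998, 0.644 and 0.999). In 8 libraries the comparisons with sham gave 0.62 ± 0.54 and 0.98 ± 0.60 (edgeR adjusted p = 1 and 0.526). Without FLASH replicate 4 the value for FLASH against sham was 0.02, without CONV replicate 1 that for CONV against sham was 0.01, and a replicate block gave -0.07 for FLASH against sham.

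Dkk3, a divergent Dickkopf relative, spread over each group. FLASH libraries had 0.999, 1.9, 7.95 and 4.91 CPM of Dkk3, CONV libraries had 5.09, 7.54 and 1.84 CPM, and sham libraries had 1.31, 5.7 and 5.38 CPM. Its highest 2 libraries were the lymphocyte-rich pair, the reverse of Sfrp2 and Sfrp4. Dkk3 had a log2 fold change of -0.07 ± 0.79 (SE) for FLASH against sham and 0.23 ± 0.85 for CONV against sham (edgeR adjusted p = 1 and 0.915). In 8 libraries it was -0.66 ± 0.73 and -0.26 ± 0.82 (edgeR adjusted p = 1 and 0.917), and for FLASH against CONV it was -0.29 ± 0.79 in 10 libraries (edgeR adjusted p = 0.999).

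Frzb, the Frizzled-related protein also called Sfrp3, was near the floor in several libraries. FLASH libraries had 5, 3, 58 and 3 counts of Frzb, CONV libraries had 22, 78 and 2 counts, and sham libraries had 3, 31 and 13 counts. The lymphocyte-rich pair again held the highest values, at 2.24 CPM (FLASH replicate 3) and 2.61 CPM (CONV replicate 2), against at most 1.01 CPM elsewhere. The direction for FLASH against sham turned on that pair, with a log2 fold change of 0.33 ± 1.42 (SE) in 10 libraries and -2.08 ± 1.01 in 8 (edgeR adjusted p = 0.998 and 1). Without the pair, FLASH averaged 0.118 ± 0.0302 CPM (SD, n = 3) and sham 0.512 ± 0.464 CPM (SD, n = 3). For CONV against sham the log2 fold change was 1.14 ± 1.51 in 10 libraries and -0.38 ± 1.02 in 8 (edgeR adjusted p = 0.741 and 0.902). For FLASH against CONV it was -0.81 ± 1.38 and -1.70 ± 1.11 (edgeR adjusted p = 0.999 and 0.558).

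Wif1, which binds Wnt proteins through its WIF domain, had the largest positive fold change of the members for FLASH against sham. FLASH libraries had 52, 11, 6 and 16 counts of Wif1, or 1.57, 0.403, 0.232 and 0.494 CPM. CONV libraries had 17, 1 and 10 counts, or 0.544, 0.0335 and 0.368 CPM, and sham libraries had 8, 4 and 4 counts, or 0.243, 0.13 and 0.134 CPM. FLASH replicate 1 was the highest library, and the lowest library of each irradiated group was its lymphocyte-rich one. No sham library had more than 8 counts, so Wif1 passed the filter on low counts only through irradiated libraries. Its separation from sham is therefore given as a description. The log2 fold change was 1.97 ± 0.92 (SE) for FLASH against sham and 0.88 ± 0.96 for CONV against sham (edgeR adjusted p = 0.998 and 0.697). Without the lymphocyte-rich pair every irradiated library was above every sham library, and the log2 fold change was 2.24 ± 0.64 and 1.39 ± 0.71 (edgeR adjusted p = 1 and 0.452). In those 8 libraries, 5.14% of genes had every FLASH library above every sham library and 13% had every CONV library above every sham library, with 1.67% showing both. Without FLASH replicate 1 the log2 fold change for FLASH against sham was 1.13, and without CONV replicate 1 that for CONV against sham was 0.22. FLASH against CONV gave 1.10 ± 0.87 in 10 libraries (edgeR adjusted p = 0.999). Keratinocyte and hair follicle markers summed to 8.26 to 135 CPM in FLASH, 11.5 to 35.7 CPM in CONV and 11.1 to 20.1 CPM in sham, with up to 4 of 8 of them at 0 in a library. FLASH replicate 1, the highest in Wif1, had a sum of 16.9 CPM. Trp63 alone gave 15.7 CPM of it, while Krt5 stood at 0 and Krt14 at 0.121 CPM. In sham too Trp63 gave most of the sum, at 9.35 of 11.1, 13.5 of 16.2 and 18 of 20.1 CPM. The part of these cells in the Wif1 values was not tested.

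**Figure D2:**
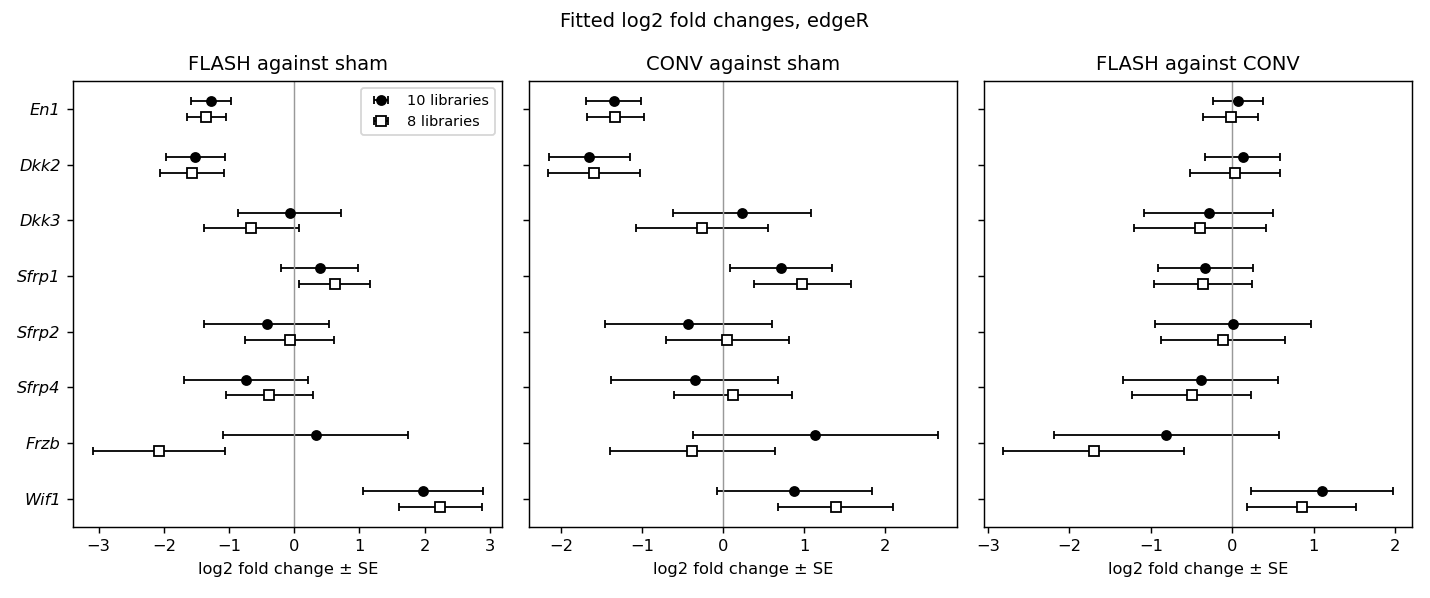
Fitted log2 fold changes with their SE for the 8 genes in the 3 comparisons of groups, with 10 libraries as filled circles and 8 libraries as open squares. En1 and Dkk2 lie between -1.65 and -1.28 in both comparisons with sham, and Frzb for FLASH against sham lies at 0.33 with 10 libraries and at -2.08 with 8.

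The biological coefficient of variation that edgeR fitted differed between members, from 0.369 for En1 to 1.18 for Frzb in 10 libraries, where the common value over all genes was 0.543. Dkk2 had 0.474, Sfrp1 0.557, Dkk3 0.727, Wif1 0.743 and Sfrp4 0.837, with Sfrp2 just under Sfrp4. En1 and Dkk2 thus lay below the common value in 10 libraries. In 8 libraries the common value was 0.284, and every member lay above it, from 0.296 for En1 to 0.746 for Frzb.

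The members were next set beside markers of fibroblasts and adipose progenitors, cells known to make several of these secreted Wnt modulators. The 10 markers summed to 4780, 5570, 1510 and 3950 CPM in FLASH, 7840, 1590 and 3390 CPM in CONV, and 5320, 7090 and 4710 CPM in sham, and none was at 0 in any library. For FLASH against sham 8 of the 10 had negative fold changes, with a median of -0.54 against 0.03 over all genes, and for CONV against sham 8 of 10 with a median of -0.40 against 0.08. In 8 libraries the medians were -0.26 and -0.15. In bulk tissue, fewer cells of a type and less RNA per cell cannot be told apart. Col3a1 alone gave 4440 of the 7840 CPM in CONV replicate 1 and 2960 of the 5320 CPM in sham replicate 1. Sfrp2 and Sfrp4 were highest in CONV replicate 1, the library with the highest marker sum, and lowest in the pair with the lowest sums. CONV replicate 1 was also highest in skeletal muscle markers (1810 CPM, against 1.58 to 606 CPM elsewhere) and macrophage markers (1060 CPM, against 321 to 520 CPM). The part of these cells in the member values was not tested.

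En1 was set against that sum, per 1000 CPM of fibroblast markers. FLASH libraries had 0.31, 0.282, 1.53 and 0.72 CPM of En1 per 1000, CONV libraries had 0.27, 1.16 and 0.565, and sham libraries had 0.788, 0.813 and 1.08. Outside the lymphocyte-rich pair all 5 irradiated libraries were below all 3 sham libraries, at 0.438 ± 0.245 in FLASH and 0.417 ± 0.209 in CONV, against 0.893 ± 0.161 in sham (SD, n = 3, 2 and 3). On this scale and in these 8 libraries 0.184% of genes had all irradiated libraries below all sham libraries, which for a gene chosen by its values is given as background only. The lymphocyte-rich pair had the highest ratios of all, so with 10 libraries the groups overlapped. Dkk2 per 1000 was 0.279, 0.217, 1.05 and 0.446 in FLASH, 0.257, 0.761 and 0.239 in CONV, and 0.839, 0.882 and 0.421 in sham. FLASH replicate 4 lay above sham replicate 3 for Dkk2, so those groups overlapped with or without the pair. Sfrp1 per 1000 was 1.44, 3.82, 4.79 and 6.46 in FLASH, 4.33, 7.1 and 3.65 in CONV, and 1.53, 2.31 and 2.2 in sham. Every CONV library was above every sham library on this scale, as was the case for 4.32% of genes, and 1 FLASH library was below all sham libraries.

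**Figure D3:**
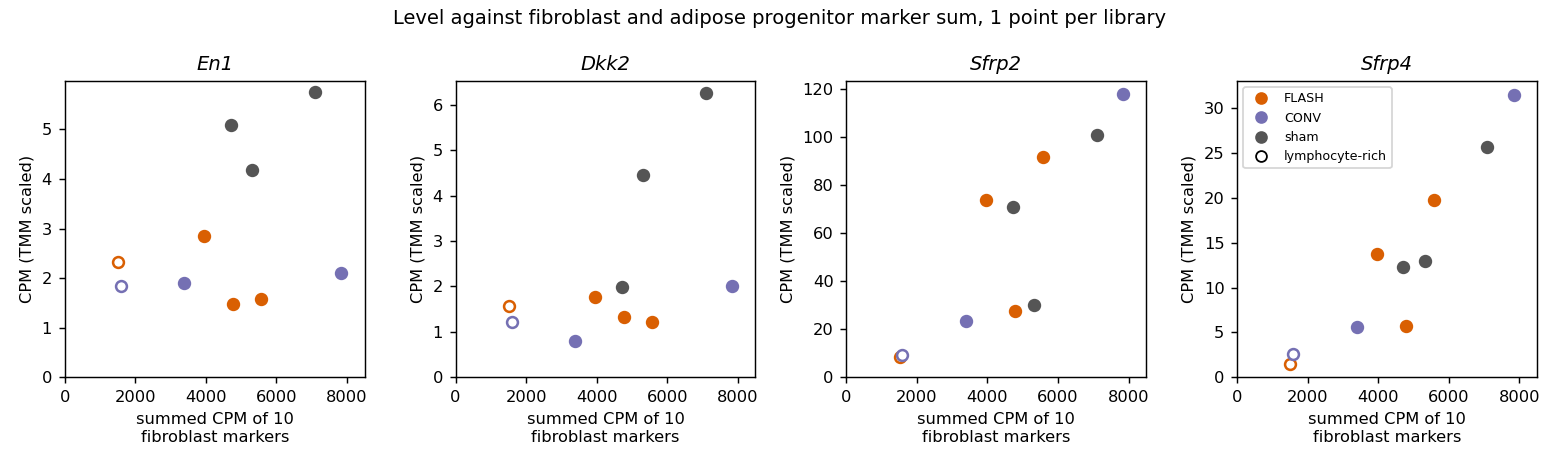
Level in CPM of En1, Dkk2, Sfrp2 and Sfrp4 against the summed CPM of 10 fibroblast and adipose progenitor markers, 1 point per library, with the lymphocyte-rich pair as open circles. Sfrp2 and Sfrp4 are highest in the library with a sum of 7840 CPM, in which En1 stands at 2.11 CPM.

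The genes with the patterns most like those of En1 and Dkk2 were sought by the mean absolute difference of centred log2 CPM over the 8 libraries, among 13298 genes. For En1 they were Akap5 and Dnm3os (0.31 each) and Cdh19 and Hebp2 (0.34 each), beside a mean deviation of 0.64 for En1 itself. Dnm3os, a noncoding RNA that hosts microRNAs, had 16, 19.4, 18.4 and 35.7 CPM in FLASH, 25.9, 15 and 17 CPM in CONV, and 27.7, 40.7 and 42.2 CPM in sham. Dnm3os overlapped between FLASH and sham, through FLASH replicate 4. Akap5, an anchoring protein for protein kinase A, left the list with 10 libraries, since it stood at 5.48 and 5.7 CPM in the lymphocyte-rich pair, above every sham library. With 10 libraries, the 4 for En1 were Dnm3os (0.29), Btbd8 (0.32), Clec11a and Ldlrad4 (0.35 each). Cdh19 is also 1 of the 6 Schwann cell markers, which summed to 60.3 to 100 CPM in FLASH, 80.6 to 88.3 CPM in CONV and 94.9 to 229 CPM in sham, none at 0 in any library. All 6 had negative fold changes against sham in both irradiated groups, and their part in the En1 values was not tested.

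For Dkk2, whose own mean deviation was 0.68, the 4 were Pcdh20 (0.35), Miat (0.37), and Col14a1 and Clec11a (0.39 each). Pcdh20, a protocadherin, had 3.97, 7.65, 0.888 and 5.1 CPM in FLASH, 4.55, 1.47 and 1.29 CPM in CONV, and 11.6, 15 and 6.08 CPM in sham. Its lowest sham library, replicate 3, was also the lowest sham library of Dkk2. Col14a1, a fibril-associated collagen, had 50.1, 59.6, 20.9 and 81.3 CPM in FLASH, 127, 35.3 and 35.3 CPM in CONV, and 100, 161 and 61.1 CPM in sham. With 10 libraries En1 itself was 1 of the 4 nearest to Dkk2 (0.39), beside Ildr2 (0.35), Clec11a (0.37) and Pabpc4l (0.39). En1 and Dkk2 were both chosen by their FLASH and sham values, which favours likeness between them, so nothing is read from it.

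The other genes of the pathway were read from 8 lists of 102 genes in all, of which 78 were tested in 10 libraries, and 0 of them passed edgeR's test in any comparison with 10 or with 8 libraries. Of the Wnt ligands, 9 of 19 were tested, 7 with negative fold changes for FLASH against sham (median -0.31) and 8 for CONV against sham (median -0.46). In 8 libraries 11 ligands were tested, 6 with negative fold changes for FLASH against sham (median -0.07) and 8 for CONV against sham (median -0.56). Of the receptors, 16 of 18 were tested, 10 with negative fold changes for FLASH against sham (median -0.11) and 13 for CONV against sham (median -0.44). Without the lymphocyte-rich pair 11 of these receptors had positive fold changes for FLASH against sham (median 0.07), and 13 still had negative ones for CONV against sham (median -0.23). The medians over all genes were 0.03 and 0.08 in 10 libraries, and -0.01 and 0.01 in 8.

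Sfrp5, the adipocyte-made relative of the Sfrp members and a known antagonist of Wnt5a, was the family member with the largest difference between the irradiated groups. FLASH libraries had 259, 142, 3.09 and 81.1 CPM of Sfrp5, CONV libraries had 14.2, 1.31 and 4.08 CPM, and sham libraries had 67.7, 108 and 115 CPM. Outside FLASH replicate 3, which is lymphocyte-rich, FLASH and sham libraries were all above every CONV library. In all 10 libraries 9.11% of genes had every CONV library below every sham library. In the 8 libraries 12.8% of genes had every FLASH library above every CONV library. Sfrp5 had a log2 fold change of 0.33 ± 1.11 (SE) for FLASH against sham, -3.88 ± 1.33 for CONV against sham and 4.21 ± 1.32 for FLASH against CONV (edgeR adjusted p = 0.998, 0.607 and 0.999). In 8 libraries these were 0.72 ± 0.51, -3.41 ± 0.67 and 4.13 ± 0.70 (edgeR adjusted p = 1, 0.104 and 0.10). DESeq2 called FLASH against CONV with 10 libraries (adjusted p = 0.0287) and with 8 (adjusted p = 1.72e-10), the second fit having been chosen after seeing the data. For CONV against sham DESeq2 gave adjusted p = 0.0834 with 10 libraries and called it with 8 (adjusted p = 3.96e-07). With 8 libraries DESeq2 called 663 of 15252 genes for CONV against sham and 667 for FLASH against CONV.

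Axin2 and Nkd1, feedback inhibitors that canonical Wnt signalling induces, shared with Sfrp5 that CONV had the lowest mean. FLASH libraries had 40.4, 40.7, 28.9 and 34.4 CPM of Axin2, CONV libraries had 9.09, 18.5 and 21.7 CPM, and sham libraries had 31.4, 54.6 and 38.4 CPM. FLASH libraries had 24.4, 19.4, 4.4 and 12.9 CPM of Nkd1, CONV libraries had 5.28, 4.16 and 2.98 CPM, and sham libraries had 14.6, 21.1 and 12.3 CPM. For Axin2 every FLASH and sham library was above every CONV library, and for Nkd1 FLASH replicate 3 was the exception. In all 10 libraries, 1.13% of genes had every FLASH library above every CONV library, which held for Axin2 but not for Nkd1. In the 8 libraries, where it held for both genes, this share was 12.8%. In all 10 libraries 9.11% of genes had every CONV library below every sham library, as both genes did. Axin2 had a log2 fold change of -1.33 ± 0.34 (SE) for CONV against sham and 1.13 ± 0.32 for FLASH against CONV (edgeR adjusted p = 0.607 and 0.999). Nkd1 had -1.95 ± 0.56 for CONV against sham and 1.88 ± 0.53 for FLASH against CONV (edgeR adjusted p = 0.607 and 0.999). With 8 libraries edgeR's adjusted p lay between 0.103 and 0.193 for these 4 values, while DESeq2 gave 0.00561 and 0.0138 for Axin2 and 7.06e-05 and 4.98e-06 for Nkd1. That DESeq2 fit, chosen after seeing the data, called 663 and 667 of 15252 genes in these comparisons. For En1 and Dkk2 the CONV libraries lay with or beside the FLASH libraries.

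Wnt5a, a ligand of the noncanonical branch, had 50.1, 61, 10.8 and 45.8 CPM in FLASH, 34.5, 10.8 and 31 CPM in CONV, and 55.2, 63.1 and 48.2 CPM in sham. Every CONV library was below every sham library, as was the case for 9.11% of genes. The lowest level was 10.8 CPM, in each of the lymphocyte-rich libraries. The log2 fold change for CONV against sham was -1.13 ± 0.60 (SE) in 10 libraries and -0.78 ± 0.17 in 8 (edgeR adjusted p = 0.607 and 0.126), and DESeq2 called it in 8 (adjusted p = 0.00636). For FLASH against CONV it was 0.72 ± 0.56 in 10 libraries and 0.69 ± 0.17 in 8 (edgeR adjusted p = 0.999 and 0.163), and DESeq2 called it in 8 (adjusted p = 0.0229). In 8 libraries DESeq2, a fit chosen after seeing the data, called 663 and 667 of 15252 genes in these comparisons, in that order. Wnt10b, a ligand that inhibits fat cell formation, had -1.96 ± 0.83 for CONV against sham, and the receptors Fzd2 and Fzd5 had -1.20 ± 0.54 and -0.87 ± 0.40 (edgeR adjusted p = 0.607 for each). Wnt2b, a canonical ligand, had -0.46 ± 0.55 for FLASH against sham, while the receptors Ror1 and Fzd10 had -0.31 ± 0.25 and 1.46 ± 1.10 (edgeR adjusted p = 0.998 for each). The FLASH against CONV values of Wnt5a, Sfrp5, Axin2 and Nkd1 were chosen after their values were seen.

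**Figure D4:**
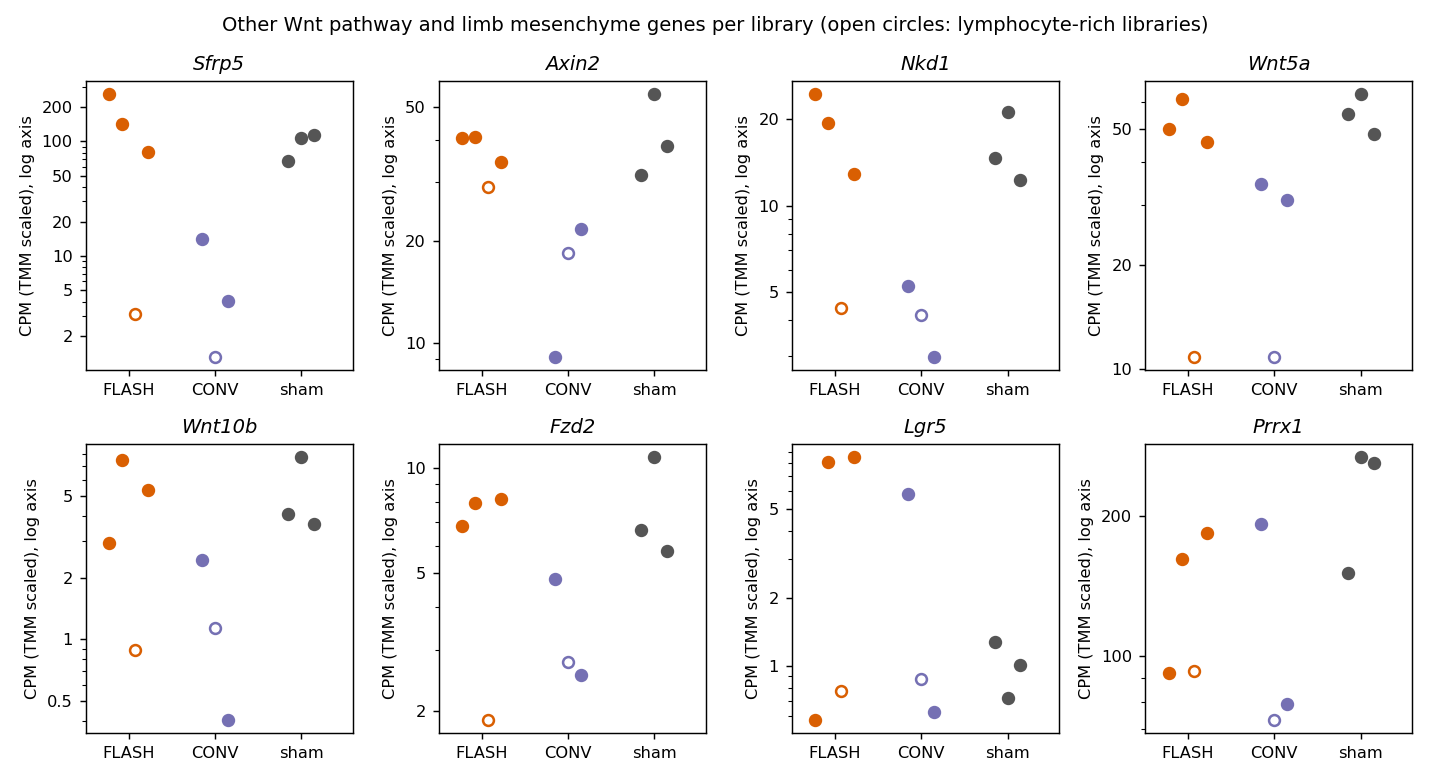
Level in CPM on a log axis of Sfrp5, Axin2, Nkd1, Wnt5a, Wnt10b, Fzd2, Lgr5 and Prrx1 in each library, by group, with the lymphocyte-rich pair as open circles. Axin2 in CONV stays at or below 21.7 CPM, under the lowest FLASH library at 28.9 CPM and the lowest sham library at 31.4 CPM.

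Of the secreted agonists, 4 of 6 were tested, 3 with negative fold changes for FLASH against sham and 2 for CONV against sham (medians -0.30 and -0.14). Rspo2, an R-spondin that amplifies Wnt signalling, had 13, 31, 6 and 21 counts in FLASH, 13, 1 and 0 counts in CONV, and 22, 55 and 146 counts in sham. Sham replicate 3 held most of the Rspo2 counts of its group. Its fitted log2 fold change was -2.02 ± 1.05 (SE) for FLASH against sham and -3.97 ± 1.29 for CONV against sham (edgeR adjusted p = 0.998 and 0.607). In 8 libraries DESeq2 called CONV against sham (adjusted p = 0.0352), while edgeR did not (adjusted p = 0.291). That DESeq2 fit, chosen after seeing the data, called 663 of 15252 genes. Leaving out sham replicate 3 gave Rspo2 -1.03 for FLASH against sham and -2.99 for CONV against sham, and leaving out CONV replicate 1 gave -6.85 for CONV against sham, with 1 count left in that group. Rspo3 had 0.52 ± 0.40 and 0.63 ± 0.42 in those comparisons (edgeR adjusted p = 0.998 and 0.607). Of the other secreted antagonists, 5 of 9 were tested, 4 with positive fold changes for FLASH against sham (median 0.91) and 3 for CONV against sham (median 0.75). In 8 libraries 4 were tested, with medians of 0.18 and -0.35. Draxin, which binds Wnt co-receptors, had 1.55 ± 1.04 for FLASH against sham in 10 libraries and 0.26 ± 0.45 in 8 (edgeR adjusted p = 0.998 and 1). Dkkl1 had 2.63 ± 1.92 (edgeR adjusted p = 0.998) and at most 1.01 CPM in any library. Its counts were 0, 1, 17 and 31 in FLASH, 0, 30 and 0 in CONV, and 4, 1 and 1 in sham. Dkkl1 thus passed the filter on low counts only through irradiated libraries, and its fold change is given as a description. It is among the positive fold changes counted above in both comparisons.

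Of the genes for Wnt secretion and membrane control, 10 of 11 were tested, 6 with negative fold changes for FLASH against sham (median -0.10) and 7 for CONV against sham (median -0.48). In 8 libraries 7 of the 10 had positive fold changes for FLASH against sham (median 0.15), and 6 had negative ones for CONV against sham (median -0.09). Lgr5, an R-spondin receptor, had 0.575, 8.09, 0.772 and 8.53 CPM in FLASH, 5.8, 0.871 and 0.625 CPM in CONV, and 1.28, 0.716 and 1.01 CPM in sham. FLASH replicates 2 and 4 and CONV replicate 1 were high in Lgr5, and the other 4 irradiated libraries were within or below the sham range. Those 3 libraries were also the highest in Sfrp1. Lgr5 had a log2 fold change of 2.16 ± 1.16 (SE) for FLASH against sham (edgeR adjusted p = 0.998). Rnf43, a ligase that removes Frizzled receptors, had 3.01 ± 1.62 for FLASH against sham in 10 libraries and 0.17 ± 0.55 in 8 (edgeR adjusted p = 0.998 and 1). Sham libraries had 9, 8 and 8 counts of Rnf43, so it passed the filter on low counts only through irradiated libraries. Its fold changes are given as a description. Trabd2b, a protease that inactivates Wnt proteins, had -1.44 ± 0.76 for CONV against sham (edgeR adjusted p = 0.607).

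All 15 genes of the beta-catenin core were tested, 8 with negative fold changes for FLASH against sham (median -0.05) and 9 for CONV against sham (median -0.20). In 8 libraries 9 were negative for FLASH against sham (median -0.04), and 9 were positive for CONV against sham (median 0.04). The scaffold Axin1 had 0.34 ± 0.27 (SE) and the coactivator Pygo2 0.29 ± 0.24 for FLASH against sham (edgeR adjusted p = 0.998 for each). For CONV against sham, the scaffold Apc had -0.36 ± 0.17 and the kinase Gsk3b -0.45 ± 0.25 (edgeR adjusted p = 0.607 for each). Of the feedback and target genes, 10 of 11 were tested, 5 with negative fold changes for FLASH against sham and 4 for CONV against sham (medians 0.02 and 0.32). In 8 libraries 7 were negative for FLASH against sham and 6 for CONV against sham (medians -0.06 and -0.12). Lef1 and Tcf7, transcription factors of the pathway that T cells also express, had 6.02 ± 2.85 and 5.23 ± 2.58 for FLASH against sham in 10 libraries (edgeR adjusted p = 0.998 for each). Without the lymphocyte-rich pair these were 0.15 ± 0.36 and -0.01 ± 0.36 (edgeR adjusted p = 1 for each). T cell markers summed to 3.22 to 538 CPM in FLASH, 7.85 to 362 CPM in CONV and 2.82 to 7.29 CPM in sham.

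The list of mesenchymal and limb identity genes, which runs beyond limb genes to others such as Dlk1 and Lrig1, held no called gene. All 9 of the 13 that were tested had negative fold changes against sham in both irradiated groups, with medians of -0.38 for FLASH and -0.62 for CONV. Over all genes 45.9% were negative for FLASH against sham and 43.1% for CONV against sham. Of the fibroblast and progenitor markers 8 of 10 were negative in each of these comparisons, with medians of -0.54 and -0.40, and their part in the values of this list was not tested. In 8 libraries 8 of the 9 were negative for FLASH against sham and 6 for CONV against sham, with medians of -0.23 and -0.52. Over all genes 51.5% and 48.7% were negative in these comparisons with 8 libraries. Prrx1, a homeobox gene of limb mesenchyme, averaged 133 ± 47.2 CPM in FLASH, 115 ± 66.7 CPM in CONV and 226 ± 65.4 CPM in sham (SD, n = 4, 3 and 3). Its log2 fold change was -0.77 ± 0.42 (SE) for FLASH against sham and -0.98 ± 0.45 for CONV against sham (edgeR adjusted p = 0.998 and 0.607). Msx1, a homeobox gene of the growing limb, had -0.62 ± 0.28 for CONV against sham (edgeR adjusted p = 0.607). Lmx1b, which specifies the dorsal limb where En1 specifies the ventral side, had -1.39 ± 0.80 for FLASH against sham (edgeR adjusted p = 0.998) and at most 0.781 CPM in any library.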

How the data were processed

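Total RNA of fat was made into ribosomal RNA-depleted, stranded libraries, per the labels' protocols. The authors deposited raw counts, whole numbers per gene symbol. kallisto 0.5.0 and mm10 are named, per the submitters' processing notes, but no source used here gives the aligner, counting strand or annotation. Closing entries for reads given to no gene (52.03% to 69.6% of each file) were left out. Counts were tested with R 4.3.3 and edgeR 4.0.16 (filterByExpr, TMM factors of 0.875 to 1.17, robust quasi-likelihood fit, 1 mean per group over 10 libraries, two-sided, Benjamini-Hochberg over all genes, threshold 0.05). The SE is the absolute log2 fold change over the square root of F, and log2 CPM used a prior count of 2. The procedure was tested on simulated data.

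Genes were named by rule: the members, the 2 genes of lowest p in each pathway list against sham for FLASH and for CONV, any that passed, and the 4 genes most like En1 and Dkk2. Members and lists were chosen with earlier results of these data known. Alternatives were other factors, filters, only the groups compared, limma voom 3.58.1, DESeq2 1.42.0, a replicate block, each library left out, and both lymphocyte-rich libraries left out. Exon lengths came from GENCODE M21.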

Additional observations from a re-analysis of the deposited data

Results flagged for a closer look

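Each value here is the highest FLASH library for a gene, in CPM, and lay far from the other 3 FLASH libraries by a gap test that chance meets in about 1 in 20 groups. Frzb stood at 2.24 CPM in FLASH replicate 3, the lymphocyte-rich library of the group. In that library the same held for Fzd10 at 2.86 CPM, Draxin at 6.18 CPM, Rnf43 at 7.84 CPM, Axin1 at 66.2 CPM, Lef1 at 100 CPM and Tcf7 at 184 CPM. Apc stood at 259 CPM in FLASH replicate 1.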

How the results depend on the processing

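The En1 and Dkk2 fold changes against sham kept their sign under every alternative that was run. Both genes were chosen by their FLASH and sham values in these libraries, so the kept signs are a description only. edgeR's counts of calls of 0 became 66 (CONV against sham) and 40 (FLASH against CONV) with DESeq2, and 6 and 2 without the lymphocyte-rich pair. Chosen after seeing the data, DESeq2 without the pair gave 4 (FLASH against sham), 663 and 667 calls, and limma voom without the pair gave 4 (CONV against sham) and 3 (FLASH against CONV). Leaving out each library gave 0 calls for FLASH against sham and 0 to 1 for CONV against sham (1 without FLASH replicate 3) and for FLASH against CONV (1 without FLASH replicate 3 or CONV replicate 2). Among 9 same-numbered pairs of libraries only 2 correlations of deviations exceeded 0.1. The lymphocyte-rich libraries, FLASH replicate 3 and CONV replicate 2, carry different numbers and correlated at 0.9. Since these libraries weigh on the correlations, the check cannot decide whether the numbers pair the samples. The replicate block called 0 genes in each comparison, and gave En1 -1.49 and -1.34 and Dkk2 -1.47 and -1.63 for FLASH and CONV against sham. Signs turned with the block for Sfrp1 (-0.07) and Sfrp5 (-0.22) in FLASH against sham, and En1 (-0.15) and Sfrp2 (-0.50) in FLASH against CONV. With limma voom they turned for Frzb (-0.49) and Sfrp5 (-0.78) in FLASH against sham. Without the pair they turned in FLASH against sham for Frzb (-2.08), Tcf7 (-0.01) and Nkd1 (0.23), in CONV against sham for Dkk3 (-0.26), Sfrp2 (0.05), Sfrp4 (0.12) and Frzb (-0.38), and in FLASH against CONV for En1 (-0.02) and Sfrp2 (-0.12). DESeq2 without the pair gave Frzb -2.12 and Nkd1 0.24 in FLASH against sham, Dkk3 -0.26, Sfrp2 0.07, Sfrp4 0.13 and Frzb -0.39 in CONV against sham, and En1 -0.03 and Sfrp2 -0.13 in FLASH against CONV. limma voom without the pair gave Frzb -1.45, Rnf43 -0.05 and Nkd1 0.22 in FLASH against sham, Dkk3 -0.12 and Frzb -0.45 in CONV against sham, and En1 -0.08 in FLASH against CONV. With each library left out, FLASH against sham ranged from -0.67 to 0.25 for Dkk3, -2.08 to 1.26 for Frzb, -0.82 to 0.23 for Wnt2b, 0 to 5.63 for Tcf7, -0.36 to 0.72 for Sfrp5, -0.37 to 0.05 for Axin2, -0.38 to 0.23 for Nkd1, 0.02 to 0.72 for Sfrp1, 1.13 to 2.32 for Wif1 and -2.51 to -1.03 for Rspo2. CONV against sham ranged from -0.26 to 0.60 for Dkk3, -2.06 to 0.06 for Sfrp2, -2.05 to 0.13 for Sfrp4, -0.38 to 2.07 for Frzb, 0.01 to 1.05 for Sfrp1, 0.22 to 1.4 for Wif1 and -6.85 to -2.99 for Rspo2. FLASH against CONV ranged from -0.13 to 0.20 for En1, -0.13 to 0.55 for Dkk2, -0.90 to 0.18 for Dkk3, -0.70 to 0.38 for Sfrp1, -0.49 to 1.64 for Sfrp2, -0.94 to 1.31 for Sfrp4 and -3.23 to 0.70 for Frzb. The causes were not tested. Groups of 3 or 4 libraries, and counts at or near 3 for Frzb, Wif1 and Rspo2, limit what these depths can show.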
